A study of Mus musculus with 8 samples.

Results

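Type I interferon response genes are genes that cells switch on after interferon alpha or beta reaches them. The 34 genes described here were given as a list of symbols, and each was looked up by symbol in the expression matrices of 8 tumor libraries. Rows were found for 33 of the 34, out of 19024 gene symbols in all, and Mx2 had no row. The tumors were grown from MB49, a mouse urothelial cancer cell line, injected under the skin of the flanks at 2 tumors per mouse. The hosts were mice of the strain C57BL/6 UbcreERT2/+;Atg7+/+ (4 wild-type libraries, numbered 1, 2, 5 and 6) or C57BL/6 UbcreERT2/+;Atg7f/f (4 Atg7-deleted libraries, numbered 3, 4, 7 and 8). Both groups carried the UbcreERT2 transgene and both received TAM daily for 4 days, 1 week before the injection. Tumors were taken 3 weeks after the injection. Atg7 encodes the activating enzyme of the conjugation systems of autophagy, and the study asked how its loss in the host affects the immune response to a tumor. The Cre was not directed to 1 cell type of the host, while the injected MB49 cells are not of the host genotype. Which tumors shared a mouse is not in the labels, which also give no host age or sex, so p-values may measure only the spread between tumors.

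Interferon alpha and beta bind a receptor made of Ifnar1 and Ifnar2, whose signal activates a complex of transcription factors that includes Irf9. The complex binds a short motif, the interferon-stimulated response element, in front of the response genes. The products include sensors of viral RNA and DNA, enzymes that block viral replication, and Irf7, a transcription factor that raises further interferon production. In tumors, dendritic cells and macrophages are known both as sources of type I interferon and as cells that respond to it.

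The promoters of Isg15, Bst2, Ifi206 and Ifit3 are shown as examples that hold the motif. Isg15, Bst2 and Ifi206 passed the test described further on in a cell class, while Ifit3 passed in none of the classes compared. Irf7 also passed, but it had no match in the stretch searched and is not shown. Each line gives the 200 bases before the RefSeq transcript start (GRCm38.p6), read 5′ to 3′ along the gene, and capitals mark every match to GAAA, any 2 bases and GAAA again, the core of the response element, on either strand, where neighboring matches overlap. Isg15 is at chr4:156200819-156201018, minus strand, with matches that begin 78, 72 and 66 bases before the start. Bst2 is at chr8:71537473-71537672, minus strand, with matches that begin 130 and 124 bases before the start. Ifi206 is at chr1:173491319-173491518, minus strand, with 1 match that begins 40 bases before the start. Ifit3 is at chr19:34583329-34583528, plus strand, and its 2 matches lie on the other strand, so that they read TTTC, any 2 bases and TTTC here.
Isg15: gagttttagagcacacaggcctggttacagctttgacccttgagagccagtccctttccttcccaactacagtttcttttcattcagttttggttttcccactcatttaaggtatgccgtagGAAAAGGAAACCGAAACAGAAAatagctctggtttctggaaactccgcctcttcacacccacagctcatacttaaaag
Bst2: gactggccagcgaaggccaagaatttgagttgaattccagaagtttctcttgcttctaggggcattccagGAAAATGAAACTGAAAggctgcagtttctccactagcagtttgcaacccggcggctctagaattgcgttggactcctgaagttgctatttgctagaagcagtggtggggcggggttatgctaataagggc
Ifi206: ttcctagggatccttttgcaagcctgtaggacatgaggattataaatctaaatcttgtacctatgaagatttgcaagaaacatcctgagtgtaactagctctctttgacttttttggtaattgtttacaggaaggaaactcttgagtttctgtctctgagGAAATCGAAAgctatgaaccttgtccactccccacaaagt
Ifit3: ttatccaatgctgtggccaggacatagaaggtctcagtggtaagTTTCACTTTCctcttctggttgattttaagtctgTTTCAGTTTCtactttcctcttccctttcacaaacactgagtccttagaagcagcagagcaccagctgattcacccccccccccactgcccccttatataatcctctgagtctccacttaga

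RefSeq promoters, from 250 bases before to 50 bases after the start, were matched for 24 of the 33 genes, in 26 promoters. Of these 26, 16 (61.5%) held the GAAA pair on either strand, against 1131 of all 32851 promoters in the table (3.44%). Irf7 had no match in this window, which says only that these letters are not there. Oas2, Mx1, Usp18, Ifi27l2a, Rtp4, Dhx58, Ifi204, Zbp1 and Parp14 had no entry. Several of the genes are neighbors: Ifi204, Ifi205, Ifi206, Ifi209 and Ifi211 lie within 563.3 kb of chromosome 1, and Ifit1, Ifit2, Ifit3 and Ifit3b within 99.32 kb of chromosome 19 (GENCODE vM21 on mm10). Reads of such close relatives may be split between them by the authors' counting, so values of single members of these 2 families are uncertain.

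After removal of 919 of 29496 deposited cells, 28577 were kept, 964 to 6070 deposited cells per library, with 4371773 to 59235799 unique molecular identifiers (UMIs, each a captured transcript) per library. Cells were clustered without the interferon genes and named by marker genes. In all, 7 classes had enough cells to compare: malignant-like, monocyte/macrophage-like, neutrophil-like, dendritic-like, T-like, NK-like and fibroblast-like. A class entered for a library that held at least 20 of its cells, so wild-type library 1 dropped out of the dendritic-like and NK-like comparisons. Malignant-like cells numbered 10021 in the wild-type group and 411 in the deleted group, so their deleted values rest on 49 to 148 cells per library. Libraries 1 to 4 and libraries 5 to 8 used different sets of cell barcodes, which the labels do not explain. Both sets hold 2 libraries of each genotype, and 0 to 46 barcodes were shared by any pair of libraries. Atg7 itself was low everywhere. Its level in monocyte/macrophage-like cells was 0.170 to 0.431 UMIs per 10000 in wild-type and 0.0131 to 0.146 in deleted libraries, without overlap, while in neutrophil-like cells it averaged 0.425 and 0.551. The library kit reads the 5′ end of transcripts and the deleted stretch of Atg7 is not named in the labels, so these levels need not report the deletion.

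Levels below are UMIs per 10000 UMIs of a cell, averaged over all cells that a library holds of a class, and each transcript counts once whatever its length. A log2 difference is deleted minus wild type on the scale log2(level + 0.1), and a gene passed the test where limma's p-value, adjusted by Benjamini-Hochberg over all genes tested in the class, was under 0.05. A gene was tested in a class if at least 5% of the cells held its UMI in at least 3 libraries, of either genotype. A gene seen mainly in 1 genotype could enter through that genotype alone, so its difference is partly set by its entry. Tested genes of the list that reached this limit in 3 libraries of each genotype numbered 29 of 32 in malignant-like, 24 of 31 in monocyte/macrophage-like, 25 of 26 in neutrophil-like and 25 of 31 in dendritic-like cells. They numbered 13 of 19 in T-like, 12 of 28 in NK-like and 25 of 32 in fibroblast-like cells, and in NK-like cells 11 entered through wild-type libraries alone. Counts and medians over the tested genes are therefore given as descriptions.

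Interferon response transcripts made up the largest share of UMIs in neutrophil-like cells. The summed level of the 33 genes there was 133 ± 22.4 (SD, n = 4) in wild-type and 97.8 ± 12.2 (n = 4) in deleted libraries, and 21 of the 33 genes had their highest class level in these cells. Isg15, a ubiquitin-like protein joined to other proteins, averaged 24.4 there, and Rsad2, or viperin, an enzyme that makes an antiviral nucleotide, averaged 19.98. In wild-type libraries the summed level was 77.7 ± 15.1 in monocyte/macrophage-like, 69.6 ± 14.8 in dendritic-like (n = 3), 36.4 ± 6.09 in malignant-like, 36.1 ± 2.12 in fibroblast-like, 34.3 ± 8.04 in T-like and 22.1 ± 1.79 in NK-like cells (n = 3). Malignant-like, fibroblast-like and T-like cells did not differ beyond their spread in this order, nor did monocyte/macrophage-like and dendritic-like cells. The order is one of shares, not of transcripts per cell. Median UMIs per wild-type library were 667 to 1253 in neutrophil-like and 9600.5 to 16630 in malignant-like cells. Bst2, or tetherin, which holds budding virus at the cell surface, made up 46.3% of the sum in malignant-like cells, and Ifi27l2a, a small mitochondrial or nuclear membrane protein, 53.3% in T-like cells.

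**Figure D1:**
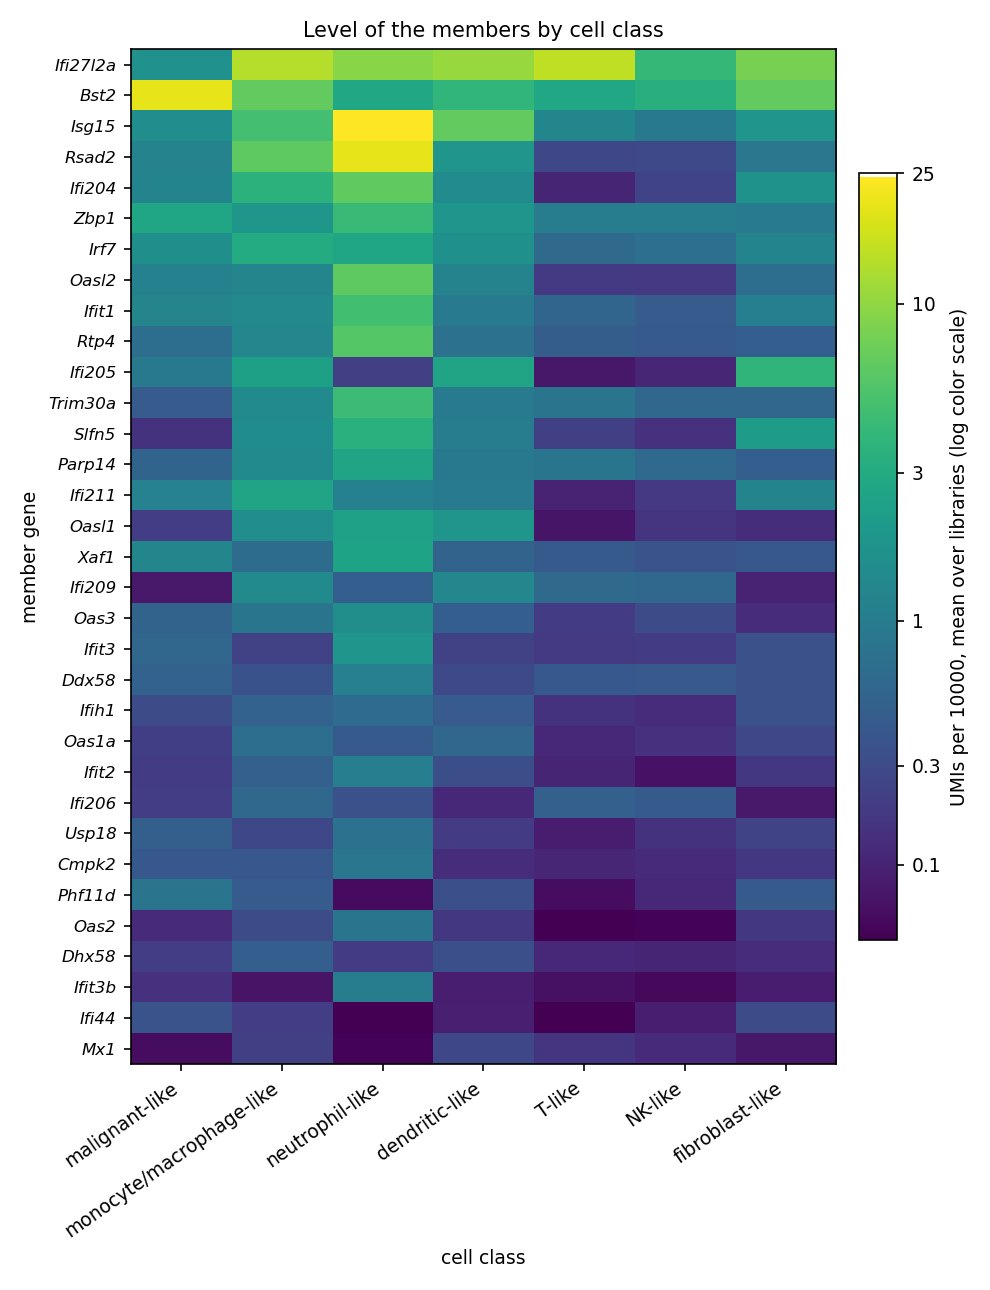
Rows are the 33 genes, columns the 7 cell classes, and color the level in UMIs per 10000 averaged over libraries, on a log color scale. Most rows are brightest in the neutrophil-like column, where Isg15 reached 24.4, while Bst2 peaks in malignant-like cells (19.8) and Ifi27l2a in T-like cells (14.6).

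The summed level of the 33 genes was lower in every Atg7-deleted library than in every wild-type one in dendritic-like, monocyte/macrophage-like and NK-like cells. In dendritic-like cells the summed level was 69.6 ± 14.8 (n = 3) in wild-type and 26.5 ± 6.11 (n = 4) in deleted libraries, a 2.62-fold difference. The monocyte/macrophage-like sums were 77.7 ± 15.1 (n = 4) and 47.7 ± 5.39 (n = 4), a 1.63-fold difference. Ratios of the means were similar in NK-like cells, at 22.1 ± 1.79 (n = 3) and 13.02 ± 3.70 (n = 4), 1.70-fold without overlap, and in T-like cells, at 34.3 ± 8.04 and 20.6 ± 5.27, 1.67-fold with overlapping libraries. The neutrophil-like ratio was 1.36. All 33 genes had a lower mean in deleted hosts in dendritic-like and in monocyte/macrophage-like cells, against 24 in T-like, 23 in NK-like, 22 in neutrophil-like, 22 in fibroblast-like and 4 in malignant-like cells. The mean log2 difference over the 33 genes was -1.13 in dendritic-like and -0.60 in monocyte/macrophage-like cells, against 0.45 in malignant-like, -0.21 in neutrophil-like, -0.34 in T-like, -0.38 in NK-like and -0.10 in fibroblast-like cells. On this mean log2 scale the genotypes did not overlap in dendritic-like, monocyte/macrophage-like and T-like cells. They overlapped in NK-like cells, where deleted library 3 (-1.18) lay above wild-type libraries 2 (-1.33) and 5 (-1.25). That library was the highest NK-like one for 13 of the 33 genes. The NK-like sums leaned on Bst2, at 3.53 to 7.32 in wild-type and 1.21 to 2.46 in deleted libraries. They leaned as well on Ifi27l2a, at 4.99 to 6.20 and 1.64 to 4.04.

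**Figure D2:**
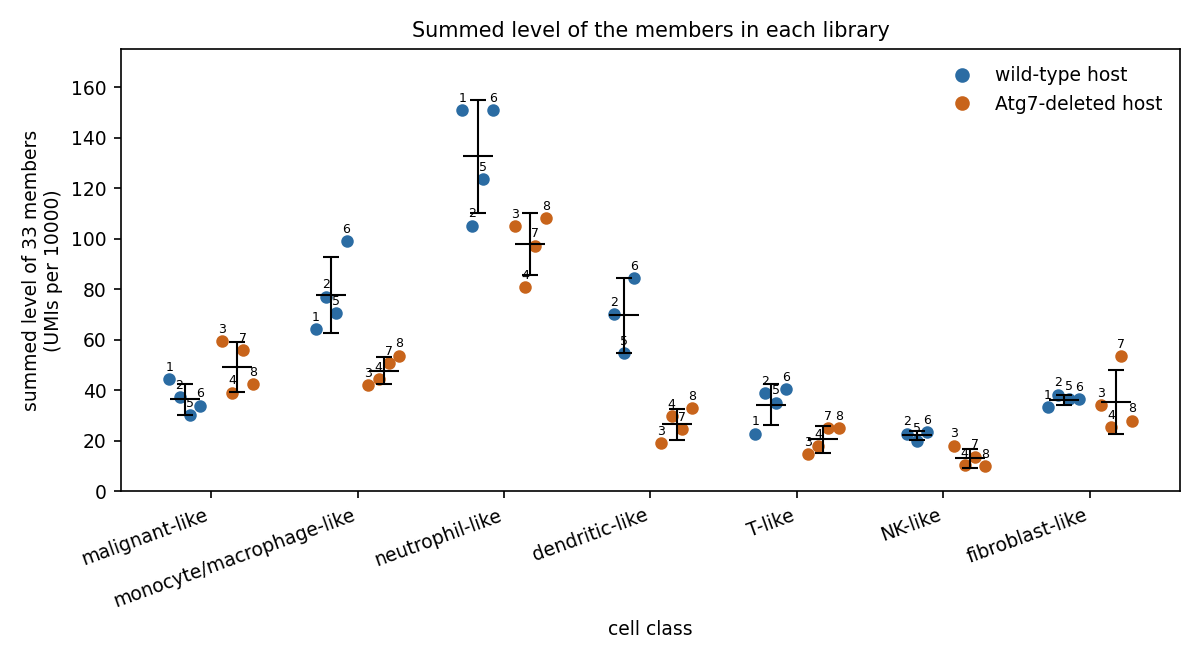
The y axis is the summed level of the 33 genes in UMIs per 10000, for each library (point, with its number beside it) in each cell class, wild-type hosts in blue and Atg7-deleted hosts in orange, with bars for the mean ± SD. In dendritic-like cells the wild-type points lie between 54.6 and 84.2 and the deleted ones between 18.9 and 32.8, and in malignant-like cells the groups overlap.

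In dendritic-like cells, the summed level was 70.1, 54.6 and 84.2 in wild-type libraries 2, 5 and 6, and 18.9, 29.8, 24.6 and 32.8 in deleted libraries 3, 4, 7 and 8. Every wild-type library lay above every deleted one. Isg15 stood at 6.42, 7.35 and 23.0 in wild-type libraries 2, 5 and 6, compared with 1.20, 2.81, 1.72 and 4.27 in deleted libraries 3, 4, 7 and 8. The groups did not overlap, and wild-type library 6 was more than 3 times either other wild-type library. Isg15 fell by 2.15 on the log2 scale (SE 0.45, limma adjusted p = 0.0475), 4.90-fold by the means. Irf7 stood at 2.93, 1.70 and 3.90 in the same wild-type libraries, compared with 0.533, 0.929, 0.316 and 0.962 in the deleted ones. It too showed no overlap and fell by 1.93 (SE 0.38, limma adjusted p = 0.0393), 4.15-fold by the means. Isg15 lies at chr4:156199424-156200818 and Irf7 at chr7:141262706-141266481, both on the minus strand (mm10).

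Isg15 and Irf7 were the 2 of 31 tested genes that passed in dendritic-like cells, where 0.325% of all 7388 genes tested did. All 31 tested genes were lower, against 40.5% of all genes tested, with a median of -1.09 against 0.11 over all genes. Wild-type and deleted libraries did not overlap for 21 of the 31, all lower in deleted hosts, against 3.65% of all genes. Among the RNA-binding Ifit proteins, Ifit1, Ifit2 and Ifit3 belonged to these 21, with log2 differences of -1.63, -1.28 and -1.59, though Ifit2 and Ifit3 entered the test through wild-type libraries alone. The 21 also held the 3 RIG-I-like receptors of viral RNA, Ddx58 (-1.41), Ifih1 (-1.01) and Dhx58 (-0.94). Zbp1 (-1.62), a sensor of Z-form nucleic acid, was another of the 21. Of the Ifi200 family, which binds DNA, Ifi204 (-1.41), Ifi209 (-0.91) and Ifi211 (-0.93) did not overlap, while Ifi205 and Ifi206 did. Oas3 (-1.48), which makes the oligoadenylates that activate RNase L, separated the groups. Oas1a, Oas2, Oasl1, Oasl2, Mx1 and Rsad2 overlapped between them.

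The call for Isg15 was lost when library 3, 4, 5, 6 or 7 was left out (adjusted p 0.0549 to 0.314) and that for Irf7 without library 2, 3, 6 or 7 (0.0676 to 0.291), the differences remaining between -2.49 and -1.57 for Isg15 and between -2.25 and -1.66 for Irf7 over all libraries left out in turn. With a term for the 2 barcode sets, 11 genes passed, all lower, against 1.19% of all genes: Isg15, Irf7, Ifit1, Zbp1, Phf11d, Ifi27l2a, Ifi204, Oas3, Parp14, Bst2 and Ddx58. Within each barcode set the mean log2 difference was -1.18 (libraries 1 to 4) and -1.10 (libraries 5 to 8). Deleted dendritic-like cells were the more deeply sequenced, with median UMIs of 4202.5 to 9777 per library against 2736.5 to 4172. After every cell was thinned to 1000 UMIs the mean difference was -1.11, and Isg15 (-2.41, adjusted p = 0.0278) and Irf7 (-2.43, adjusted p = 0.0313) passed. Neither passed with summed UMIs, with means of the deposited log values or with no detection filter.

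Cells that showed several of the genes at once made up a lower share of dendritic-like and monocyte/macrophage-like cells in deleted hosts. At 1000 UMIs per cell, 38.1%, 26.7% and 51.5% of dendritic-like cells in wild-type libraries 2, 5 and 6 held a UMI of at least 5 of the 33 genes. In deleted libraries 3, 4, 7 and 8 the shares were 3.97%, 11.8%, 4.17% and 15.4%, all below the wild-type ones. Without thinning the shares averaged 72.7% ± 11.4 and 58.9% ± 13.3. The monocyte/macrophage-like shares averaged 46.9% ± 6.35 (n = 4) and 26.5% ± 4.91 (n = 4) at 1000 UMIs, and 66.6% ± 19.4 and 57.7% ± 15.1 without thinning. Thinning left out 20 wild-type and 24 deleted dendritic-like cells, and 890 and 1135 monocyte/macrophage-like cells, as too shallow. In T-like cells the shares at 1000 UMIs were 7.29% ± 2.82 and 3.14% ± 1.20, in NK-like cells 7.32% ± 2.44 (n = 3) and 2.75% ± 2.00, and in neutrophil-like cells 67.3% ± 6.07 and 54.6% ± 10.02 (n = 3). Malignant-like shares were 9.43% ± 3.02 and 23.3% ± 20.6, and fibroblast-like shares 13.6% ± 4.02 and 14.8% ± 12.6, both with a higher mean in deleted hosts and overlapping libraries.

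The dendritic-like class was made of a cluster led by Mgl2 and another led by Ccl22 and Ccr7. The Mgl2-led cluster held 75.0% ± 5.30 of the class in wild-type and 72.1% ± 16.4 in deleted libraries, and the summed level was 50.2 in it and 27.6 in the Ccl22-led one. Summed neutrophil markers (8 genes) in dendritic-like cells ranged from 0.228 to 7.81 in wild-type and from 0.0942 to 1.63 in deleted libraries, with Retnlg at 0 in all but 1 of the 7 libraries. Summed malignant markers (9 genes) ranged from 0.332 to 0.956 and from 0.0452 to 0.530, with Cldn4 at 0 in all 7 libraries. In malignant-like cells themselves 1 to 3 of these 9 markers were at 0 per wild-type library and 2 to 4 per deleted one. Summed fibroblast markers (7 genes) in dendritic-like cells ranged from 0 to 0.463 and from 0.144 to 14.1. Plasmacytoid dendritic markers (5 genes), of a cell type known for interferon production, summed to at most 0.0722 and 0.154. The part of these in the differences was not tested.

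**Figure D3:**
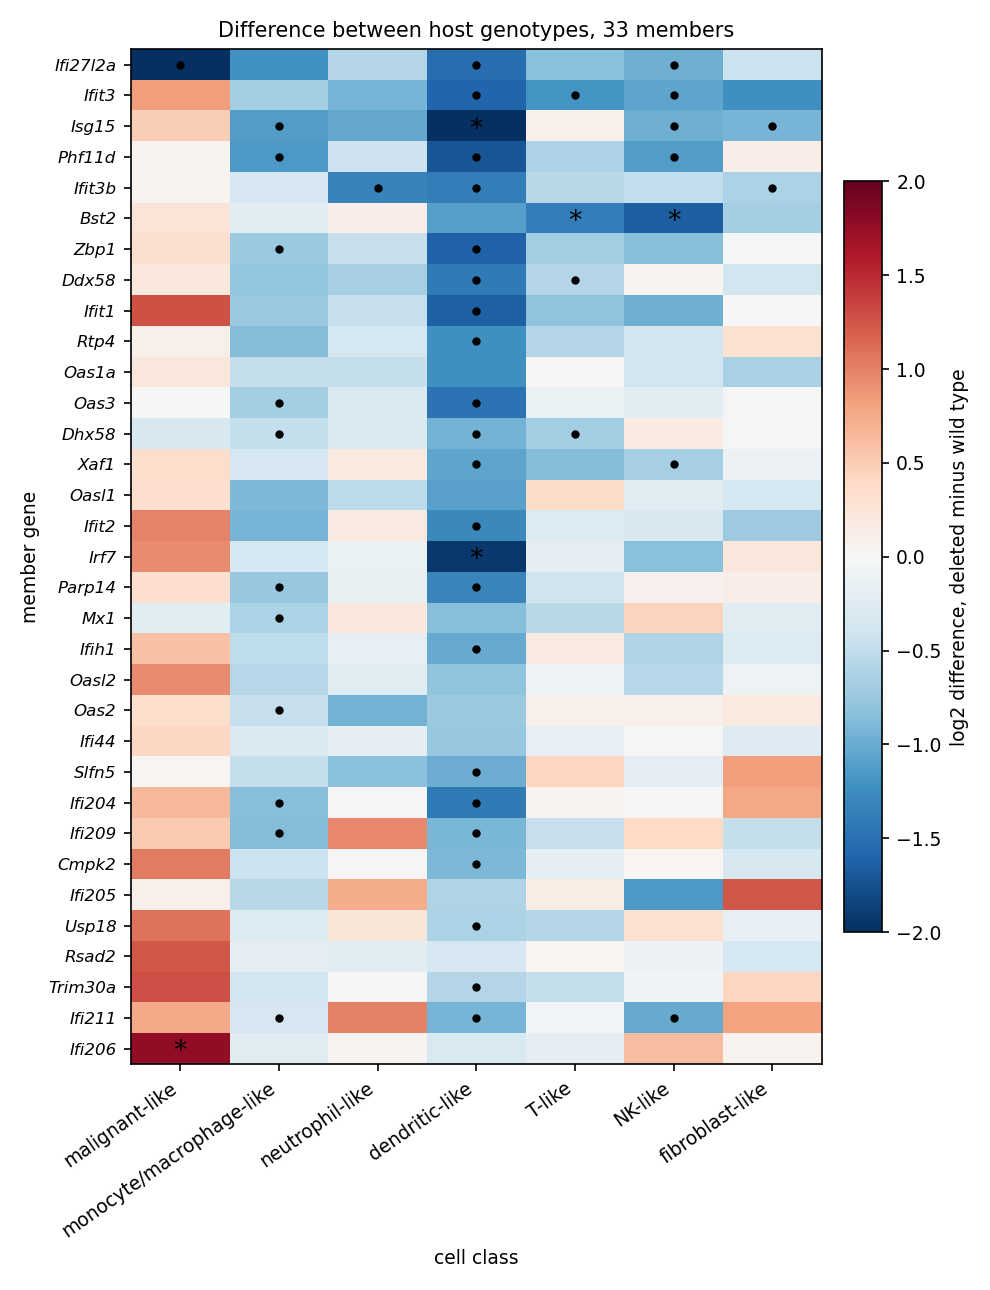
Rows are the 33 genes and columns the 7 cell classes. Color is the log2 difference, deleted minus wild type, on a scale that ends at -2 and 2, an asterisk marks a gene that passed the test, and a dot marks a gene, tested or not, whose genotypes do not overlap. The dendritic-like and monocyte/macrophage-like columns are lower throughout, and most of the malignant-like column is higher.

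In monocyte/macrophage-like cells, the summed level was 64.2, 77.0, 70.6 and 99.0 in wild-type libraries 1, 2, 5 and 6, and 42.0, 44.5, 50.6 and 53.6 in deleted libraries 3, 4, 7 and 8, with no overlap. None of the 31 tested genes passed, where 0.0469% of all 6399 genes did. All 31 were lower, against 42.5% of all genes tested, with a median of -0.56 against 0.05 over all genes. The genotypes did not overlap for 10 of the 31, against 2.56% of all genes: Isg15, Oas2, Oas3, Dhx58, Ifi204, Ifi209, Ifi211, Zbp1, Parp14 and Phf11d. Of these, 3 are Ifi200 genes. Phf11d entered the test through wild-type libraries alone, and Oas2 through deleted ones.

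Phf11d, a little-studied gene with a zinc-binding finger domain, had the lowest ratio of the genes named for these cells. It stood at 0.912, 0.866, 0.298 and 0.628 in wild-type libraries 1, 2, 5 and 6, compared with 0.249, 0.293, 0.156 and 0.233 in deleted libraries 3, 4, 7 and 8. Wild-type library 5 lay barely above deleted library 4. The log2 difference was -1.15 (SE 0.30, limma adjusted p = 0.3002). Ifi209 stood at 1.31, 1.98, 2.02 and 2.04 in the wild-type and 1.00, 0.939, 0.711 and 1.20 in the deleted libraries. Wild-type library 1 was the low one of its group, near the deleted libraries, and the log2 difference was -0.87 (SE 0.22, limma adjusted p = 0.3002).

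The genes with the highest levels in these cells did not separate the genotypes. Ifi27l2a stood at 7.21, 15.1, 21.3 and 27.8 in wild-type libraries 1, 2, 5 and 6, compared with 3.12, 3.43, 13.8 and 14.6 in deleted libraries 3, 4, 7 and 8. Libraries 5 to 8 were higher than libraries 1 to 4 of the same genotype, and within each barcode set both wild-type libraries lay above both deleted ones (-1.21, adjusted p = 0.553). Bst2 was at 4.15 to 10.9 and 5.41 to 6.90 (-0.23, adjusted p = 0.877), and Rsad2 at 5.62 to 8.62 and 4.81 to 7.76 (-0.20, adjusted p = 0.869). With the barcode-set term, 5 genes passed, all lower, against 3.64% of all genes: Phf11d (-1.15, adjusted p = 0.0166), Ifi204 (-0.86, 0.0230), Ifi27l2a (-1.21, 0.0255), Parp14 (-0.76, 0.0280) and Ifi209 (-0.87, 0.0327). Within the sets the mean log2 difference was -0.59 and -0.61.

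The monocyte/macrophage-like class differed between libraries in its clusters, most of which came from 1 or 2 libraries. Macrophages with a UMI of a C1q gene, a complement component of mature macrophages, showed a mean log2 difference of -0.55, and those without one -0.56, each with 33 of 33 genes lower. In the cluster led by Plac8, with monocyte genes such as Ly6c2, the summed level was 92.2 ± 11.6 in wild-type libraries 2, 5 and 6 and 67.5 ± 18.4 in deleted libraries 4 and 8. There 28 of 31 tested genes were lower and 16 did not overlap, against 7.54% of all genes, in a comparison of 3 with 2 libraries. A gene could enter this comparison through the 3 wild-type libraries alone but not through the 2 deleted ones alone. These counts are therefore partly set by entry. None of the 31 passed in it. In the cluster led by Ccl12, present in all 8 libraries, the sums were 69.6 ± 20.8 and 45.3 ± 10.1, and 23 of 26 tested genes were lower. Summed malignant markers in monocyte/macrophage-like cells ranged from 0.376 to 8.91 in wild-type and from 0 to 2.39 in deleted libraries. Summed fibroblast markers (7 genes) ranged from 0.0762 to 2.44 and from 1.06 to 54.2. The part of either list in the differences was not tested.

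**Figure D4:**
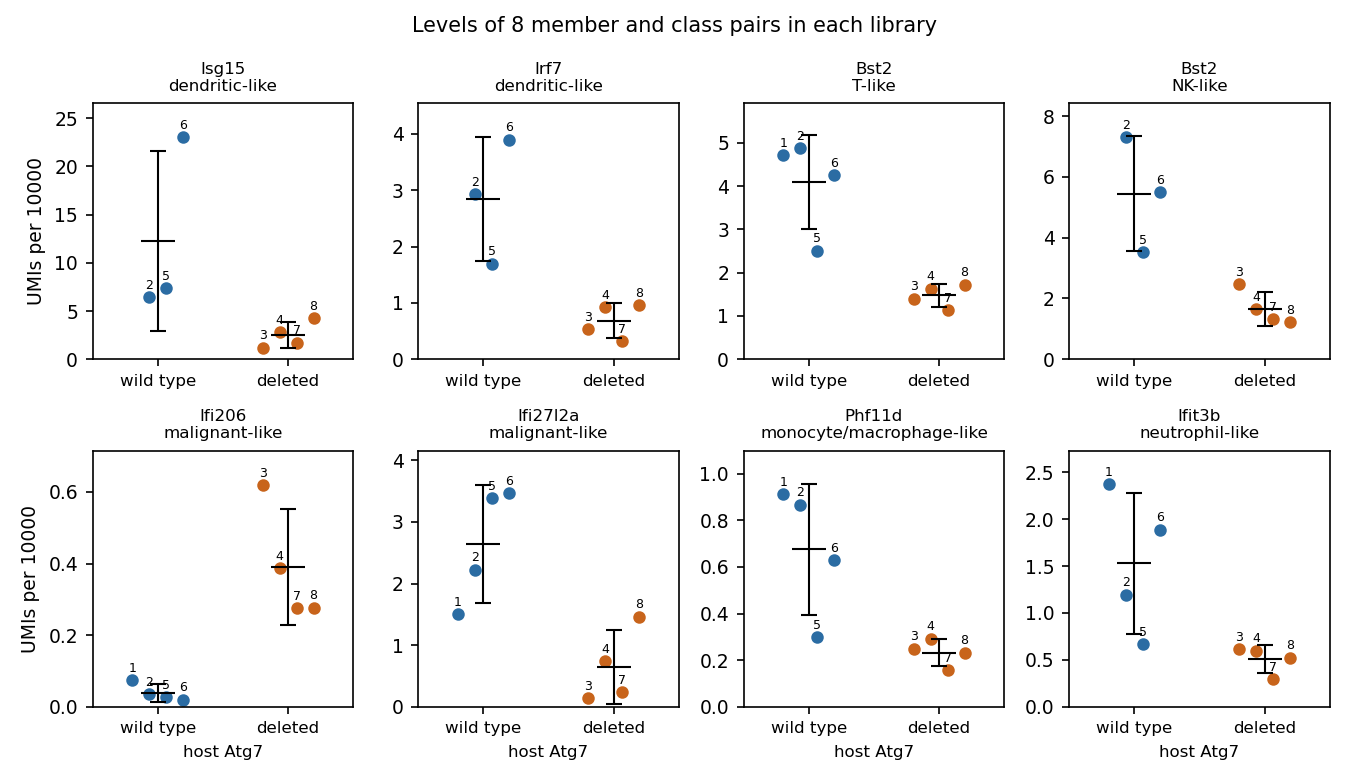
Each of the 8 panels shows 1 gene in 1 cell class, with the level in UMIs per 10000 on the y axis from 0, a point per library with its number, and bars for the mean ± SD of each genotype. Ifi206 in malignant-like cells is the panel in which the deleted libraries are the higher ones, at 0.275 to 0.619.

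In T-like cells, Bst2 fell in Atg7-deleted hosts. It stood at 4.71, 4.87, 2.51 and 4.25 in wild-type libraries 1, 2, 5 and 6, compared with 1.40, 1.63, 1.14 and 1.73 in deleted libraries 3, 4, 7 and 8. The groups did not overlap, with wild-type library 5 nearest to the deleted ones. The log2 difference was -1.38 (SE 0.25, limma adjusted p = 0.0196), 2.77-fold by the means. Bst2 (chr8:71534255-71537456, minus strand, mm10) was the 1 of 19 tested genes that passed, against 1.25% of all 6807 genes, and 3 of the 19 did not overlap, all lower, against 2.81%. Of the 19, 15 were lower and 4 higher, with a median of -0.46 against 0.11, while 39.6% of all genes tested were lower.

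The other T-like values were smaller or more spread. Ddx58, the RIG-I receptor, stood at 0.541, 0.633, 0.516 and 0.391 in the wild-type and 0.311, 0.349, 0.238 and 0.339 in the deleted libraries, without overlap (-0.59, limma adjusted p = 0.220). Ifi27l2a stood at 8.26, 20.8, 22.2 and 23.1 in the wild-type and 5.59, 6.65, 15.1 and 15.3 in the deleted libraries, where wild-type library 1 lay among the deleted ones (-0.83, adjusted p = 0.304). Isg15 stood at 0.571, 1.31, 0.935 and 2.23 in the wild-type and 0.929, 0.971, 2.21 and 1.09 in the deleted libraries, fully overlapping (0.10, adjusted p = 0.914).

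The make-up of the T-like class differed between genotypes. The Cd8b1-led cluster held 75.3% ± 5.83 of T-like cells in wild-type and 23.3% ± 8.31 in deleted libraries, and the Cd4-led cluster 11.0% ± 2.53 and 50.2% ± 9.97. Within the Cd8b1-led cluster the mean log2 difference was -0.05 and Bst2 was at -0.98 (limma adjusted p = 0.393), without deleted library 7, which had too few such cells. With T-like cells limited to those holding Cd8a or Cd8b1 UMIs, Bst2 was at -1.01 (adjusted p = 0.307), and, limited to Cd4 without Cd8 UMIs, at -0.85 (adjusted p = 0.553). With an unnamed cluster led by Cd8a added to the class, Bst2 was at -1.13 (adjusted p = 0.0730) and Ifit3 passed (-1.22, adjusted p = 0.0471). Ifit3 was the 1 of 27 tested genes that passed there, as did 47 of all 7388 genes. It had not reached the limit of detection in the T-like class itself. Its levels were 0.285 to 0.312 in wild-type and 0.0410 to 0.167 in deleted libraries, so its difference may be partly set by its entry. The Bst2 call was also lost without library 1 (0.0598), 2 (0.0582) or 7 (0.0598). With the barcode-set term Bst2 and Ifi27l2a passed, against 5.35% of all genes.

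In NK-like cells, Bst2 also fell. It stood at 7.32, 3.53 and 5.49 in wild-type libraries 2, 5 and 6, compared with 2.46, 1.65, 1.31 and 1.21 in deleted libraries 3, 4, 7 and 8, with no overlap. The log2 difference was -1.65 (SE 0.32, limma adjusted p = 0.0118), 3.28-fold by the means. It was the 1 of 28 tested genes that passed, against 2.16% of all 7668 genes, and the call was lost without library 2 (0.178), 6 (0.203) or 8 (0.0513). Of the 28, 21 were lower, against 48.4% of all genes tested, with a median of -0.37 against 0.02. Of the 28, 7 did not overlap, all lower, against 7.20% of all genes. Of these 7, Ifit3, Ifi211 and Phf11d entered the test through wild-type libraries alone. Ifi27l2a, the next by p among these, stood at 4.99, 6.20 and 5.46 in the wild-type and 2.29, 1.64, 4.04 and 3.70 in the deleted libraries (-0.98, adjusted p = 0.160). With the barcode-set term Bst2, Phf11d and Ifi205 passed, against 3.59% of all genes, but Phf11d and Ifi205 entered the test through wild-type libraries alone. The mean log2 difference was -0.13 in libraries 1 to 4 and -0.59 in libraries 5 to 8.

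Malignant-like cells are the class with the most Bst2, at 14.1 to 28.5 per library, and their markers were also read in NK-like and T-like cells. Summed malignant markers (9 genes) in NK-like cells ranged from 5.59 to 7.25 in wild-type and from 0.171 to 1.04 in deleted libraries. Krt7 and Cldn4 were the 2 markers at 0 in each wild-type library, and 1 to 7 markers were at 0 in each deleted one. In malignant-like cells themselves the 9 markers summed to 28.6 to 42.4 in wild-type and 19.4 to 29 in deleted libraries. Even there 1 to 3 of the markers were at 0 per wild-type library and 2 to 4 per deleted one. In T-like cells the sums ranged from 0.394 to 3.21 and from 0.157 to 0.723, with Cldn4 at 0 in all 8 libraries. Summed NK markers (8 genes) in T-like cells ranged from 5.51 to 16.9 in wild-type and from 0.577 to 4.27 in deleted libraries, without overlap, and Bst2 in wild-type NK-like cells stood at 3.53 to 7.32. That list includes Prf1, also a top gene of the unnamed Cd8a-led cluster, so it is not particular to NK cells. In each T-like library 2 to 4 of its markers were at 0. Summed fibroblast markers (7 genes) ranged from 0.0340 to 0.319 and from 0.381 to 15.8 in T-like cells, and from 0.0780 to 0.685 and from 0.248 to 14.95 in NK-like cells. The part of these lists in the Bst2 differences was not tested.

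In malignant-like cells, most of the genes were higher in deleted hosts and 1 passed. The summed level was 44.4, 37.3, 30.1 and 33.8 in wild-type libraries 1, 2, 5 and 6 and 59.4, 39.0, 55.7 and 42.3 in deleted libraries 3, 4, 7 and 8. The groups overlapped, deleted libraries 3 and 7 being the high ones. Median UMIs of malignant-like cells were 9600.5 to 16630 per wild-type library. They were 1468 to 15128 per deleted library, with 1468 in library 3 and 15128 in library 7. Of 32 tested genes 28 were higher and 4 lower, while 60.4% of all genes tested were lower. The median was 0.35 against -0.10 over all genes.

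Ifi206, a DNA-binding member of the Ifi200 family, rose. It stood at 0.0737, 0.0353, 0.0268 and 0.0199 in wild-type libraries 1, 2, 5 and 6, compared with 0.619, 0.387, 0.275 and 0.277 in deleted libraries 3, 4, 7 and 8, with no overlap and 10 to 105 UMIs behind each value. The log2 difference was 1.78 (SE 0.30, limma adjusted p = 0.0219). It was the 1 of 32 tested genes that passed, against 0.281% of all 9601 genes, and the 1 that was higher without overlap, against 1.03%. Ifi206 entered the test through deleted libraries alone, with a UMI in 2.17% to 5.66% of wild-type and 6.08% to 30.6% of deleted malignant-like cells per library. Tested with no detection filter it passed as well (1.78, adjusted p = 0.0265). The call was lost without wild-type library 1 (0.0518), 2 (0.114), 5 (0.110) or 6 (0.137), and after thinning to 1000 UMIs (0.135). Ifi206 lies at chr1:173468485-173491041, minus strand (mm10).

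Ifi27l2a, by contrast, had lower values in deleted hosts. It stood at 1.499, 2.22, 3.38 and 3.47 in the wild-type and 0.146, 0.744, 0.243 and 1.46 in the deleted libraries, the 1 tested gene that was lower without overlap, against 7.27% of all genes (-2.18, SE 0.50, limma adjusted p = 0.0852). Wild-type library 1 and deleted library 8 almost met. Bst2 stood at 22.2, 20.3, 14.1 and 15.3 in the wild-type and 16.2, 18.8, 28.5 and 23.1 in the deleted libraries, overlapping (0.26, adjusted p = 0.8291). Zbp1 stood at 2.35, 2.44, 1.76 and 2.65 in the wild-type and 5.31, 2.48, 2.61 and 1.92 in the deleted libraries, where library 3 alone stood out (0.32, adjusted p = 0.776). With the barcode-set term Ifi206, Ifit1 and Ifi27l2a passed, against 1.42% of all genes, with differences of 1.78, 1.27 and -2.18.

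Summed monocyte/macrophage markers (10 genes) in malignant-like cells ranged from 0.431 to 3.21 in wild-type and from 0.271 to 16.5 in deleted libraries. The 0.271 was that of deleted library 7, with C1qc, Csf1r and Ms4a7 at 0. Ifi206 had its highest class level, 0.614, in monocyte/macrophage-like cells. Summed fibroblast markers (7 genes) ranged from 0.374 to 3.04 and from 1.44 to 18.8. Neutrophil markers (8 genes) summed to 0.358 to 1.65 and 0.0743 to 6.71, and mast markers (5 genes) to at most 0.000469 and 11.6. NK markers (8 genes) had lower sums in deleted libraries, at 1.33 to 2.98 and 0.620 to 1.08. The part of these lists in the Ifi206 difference, in the other genes that were higher, or in the comparison with malignant-like cells below was not tested. In the malignant cluster led by Snhg6 and Ccdc85b, which held 14.4% and 34.3% of the class, the mean log2 difference over the 33 genes was 0.21, with 12 lower and 21 higher. Ifi206 was not tested there. It stood at 0.213, 0, 0.0264 and 0.0188 in wild-type libraries 1, 2, 5 and 6, compared with 0, 0.281 and 0.425 in deleted libraries 4, 7 and 8, so that the genotypes overlapped within this cluster.

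The genotype differences in dendritic-like and monocyte/macrophage-like cells were set against that in malignant-like cells of the same libraries. The difference of the 2 log2 differences was below 0 for 28 of 29 tested genes in dendritic-like and for 29 of 30 in monocyte/macrophage-like cells. In dendritic-like cells 7 passed, against 0.435% of all genes: Ifit1 (-3.22), Irf7 (-3.03), Isg15 (-2.73), Ifit3 (-2.68), Ifit2 (-2.38), Ifi206 (-2.19) and Trim30a (-2.02). For monocyte/macrophage-like cells 4 passed, against 0.303%: Ifi206 (-2.03), Ifit1 (-2), Ifit2 (-1.92) and Oasl2 (-1.52). Ifit2 and Ifit3 in dendritic-like cells had reached the limit of detection in wild-type libraries alone, and Ifi206 in malignant-like cells in deleted libraries alone. Limma adjusted p-values of these 11 ranged from 0.00961 to 0.0451. For Ifit1, levels in malignant-like cells were 1.32, 0.714, 0.413 and 0.345 in wild-type libraries 1, 2, 5 and 6 and 3.19, 1.53, 1.35 and 1.04 in deleted libraries 3, 4, 7 and 8, where wild-type library 1 lay among the deleted ones. In dendritic-like cells Ifit1 was 2.27, 1.07 and 1.36 in wild-type libraries 2, 5 and 6 and 0.197, 0.622, 0.685 and 0.322 in the deleted ones, with no overlap.

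In neutrophil-like cells, 19 of 26 tested genes were lower and 7 higher, while 37.4% of all genes tested were lower. The median was -0.27 against 0.19 over all genes. None passed, against 0.516% of all 2714 genes. Ifit3b, the 1 that did not overlap, against 2.58% of all genes, stood at 2.37, 1.19, 0.665 and 1.89 in wild-type libraries 1, 2, 5 and 6, compared with 0.615, 0.598, 0.293 and 0.523 in deleted libraries 3, 4, 7 and 8. The lowest wild-type library, 5, lay just above the highest deleted one (-1.33, SE 0.41, limma adjusted p = 0.160). Behind these Ifit3b values stood 17 to 72 UMIs per wild-type and 1 to 100 UMIs per deleted library. Isg15 stood at 22.2, 17.6, 31.5 and 61.3 in the wild-type and 11.2, 10.3, 14.9 and 25.9 in the deleted libraries. Deleted library 8 lay among the wild-type ones, and wild-type library 6 was the highest (-1.02, adjusted p = 0.235). Rsad2 averaged 21.5 ± 6.22 and 18.4 ± 4.30 (-0.21, adjusted p = 0.768), and Ifi27l2a 10.8 ± 2.35 and 7.99 ± 3.97 (-0.58, adjusted p = 0.478).

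In fibroblast-like cells the sums overlapped between genotypes. The summed level was 36.1 ± 2.12 (n = 4) and 35.3 ± 12.8 (n = 4), and deleted library 7, at 53.6, was above every other. Of 32 tested genes 22 were lower and 10 higher, while 42.4% of all genes tested were lower. The median was -0.13 against 0.08 over all genes, and none passed, against 0.101% of all 9911 genes. Isg15 and Ifit3b did not overlap, both lower, against 2.17% of all genes, and Ifit3b entered the test through wild-type libraries alone. Isg15 stood at 1.85, 2.32, 1.46 and 4.27 in the wild-type and 1.07, 1.09, 1.456 and 1.01 in the deleted libraries, wild-type library 5 and deleted library 7 being almost equal (-0.93, limma adjusted p = 0.338). Ifit3b averaged 0.1199 ± 0.0382 and 0.0420 ± 0.0222 (-0.63, adjusted p = 0.400), from 3 to 8 UMIs per wild-type and 3 to 95 per deleted library.

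The signaling genes in front of the response did not pass in any class. Stat2, Irf9, Irf1, Ifnar1 and Ifnar2 had log2 differences between -0.78 and 1.00 over the 7 classes, with a lowest limma adjusted p of 0.104, for Irf1 in T-like cells. In dendritic-like cells Stat2 averaged 0.988 ± 0.355 and 0.516 ± 0.0830 without overlap (-0.78, adjusted p = 0.402). Of the ligands listed, Ifnb1, which encodes interferon beta, had a row. It gave 176 UMIs in 115 of 28577 cells, of which 66 came from 3356 wild-type and 74 from 6045 deleted monocyte/macrophage-like cells. Its level in these cells was 0.0303, 0.0445, 0.181 and 0.271 in wild-type libraries 1, 2, 5 and 6 and 0.0194, 0.0125, 0 and 0.116 in deleted libraries 3, 4, 7 and 8, with means of 0.132 and 0.0370. Deleted library 8 lay among the wild-type ones. Ifnb1 was under the limit of detection for the fit across genes, and its log2 difference of -0.69 gave p = 0.171 by a two-sided exact permutation test of 4 against 4 libraries.

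Other interferon-induced genes, are a list of 43 that shares no gene with the 33. In dendritic-like cells 36 of 38 tested were lower, with a median of -0.67 against 0.11 over all genes, and 2 fell, where 0.325% of all genes passed: Ifitm3, a membrane protein that blocks virus entry, from 47.1 ± 12.5 to 12.0 ± 5.21 (-2.03, limma adjusted p = 0.0302), and Ms4a4c from 4.15 ± 2.09 to 1.105 ± 0.417 (-1.77, 0.0393). Among monocyte/macrophage-like cells, 29 of 36 tested genes were lower (median -0.41 against 0.05) and 0 passed, against 0.0469% of all genes. In malignant-like cells 29 of 37 were higher (median 0.36 against -0.10) and 0 passed, against 0.281%. In NK-like cells Ifitm3 fell from 8.61 ± 2.08 to 1.42 ± 1.29 (-2.98, limma adjusted p = 0.0101) and Isg20, an RNA exonuclease, from 1.29 ± 0.342 to 0.375 ± 0.258 (-1.66, 0.0380), while 20 of 38 tested were lower. There 2.16% of all genes passed. Summed malignant markers in NK-like cells were lower in deleted libraries too, at 5.59 to 7.25 in wild-type and 0.171 to 1.04 in deleted ones. Their part in these 2 differences was not tested. Isg20 also fell in neutrophil-like cells, from 10.8 ± 2.29 to 3.69 ± 0.919 (-1.53, limma adjusted p = 0.0407), where 19 of 30 tested were higher and 0.516% of all genes passed.

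A list of 25 genes of the interferon gamma response showed other directions. In neutrophil-like cells 17 of 19 tested were higher (median 0.74 against 0.19 over all genes, of which 0.516% passed), and Gbp4, a guanylate-binding protein, rose from 0.481 ± 0.196 to 2.44 ± 0.980 (2.11, limma adjusted p = 0.0317). In T-like cells 18 of 19 were higher (median 0.42 against 0.11, with 1.25% of all genes passing), and Igtp, an immunity-related GTPase, rose from 1.01 ± 0.332 to 2.40 ± 0.615 (1.18, adjusted p = 0.0355). In malignant-like cells 15 of 22 were higher (median 0.50 against -0.10, with 0.281% passing), and Iigp1, of the same GTPase family, rose from 0.375 ± 0.150 to 1.36 ± 0.438 (1.63, adjusted p = 0.0417). In dendritic-like cells 19 of 22 were lower (median -0.51 against 0.11) and 0 passed, against 0.325%. Among monocyte/macrophage-like cells 15 of 22 were lower (median -0.11 against 0.05) and 0 passed, against 0.0469%. For NK-like cells 11 of 20 were lower and for fibroblast-like cells 13 of 21 higher. Of these, 0 passed in either class, against 2.16% and 0.101%.

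Oas1a levels separated the 2 barcode sets rather than the genotypes, which overlapped in each of the 7 classes. Its level was 0 to 0.1195 in libraries 1 to 4 and 0.124 to 1.74 in libraries 5 to 8 over the 7 classes, which share their libraries, and the 2 sets did not overlap in any class. It gave 295 UMIs in libraries 1 to 4 and 4579 in libraries 5 to 8. Oas1g, a close relative outside the list, gave 93 and 1873 UMIs and separated the sets in 4 of 7 classes. Oas2 and Oas3 separated them in 0 of 7, at 0 to 1.61 against 0 to 1.13 for Oas2 and 0.0661 to 1.94 against 0.0879 to 2.16 for Oas3. Oas1a, Oas2 and Oas3 are neighbors on chromosome 5.

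**Figure D5:**
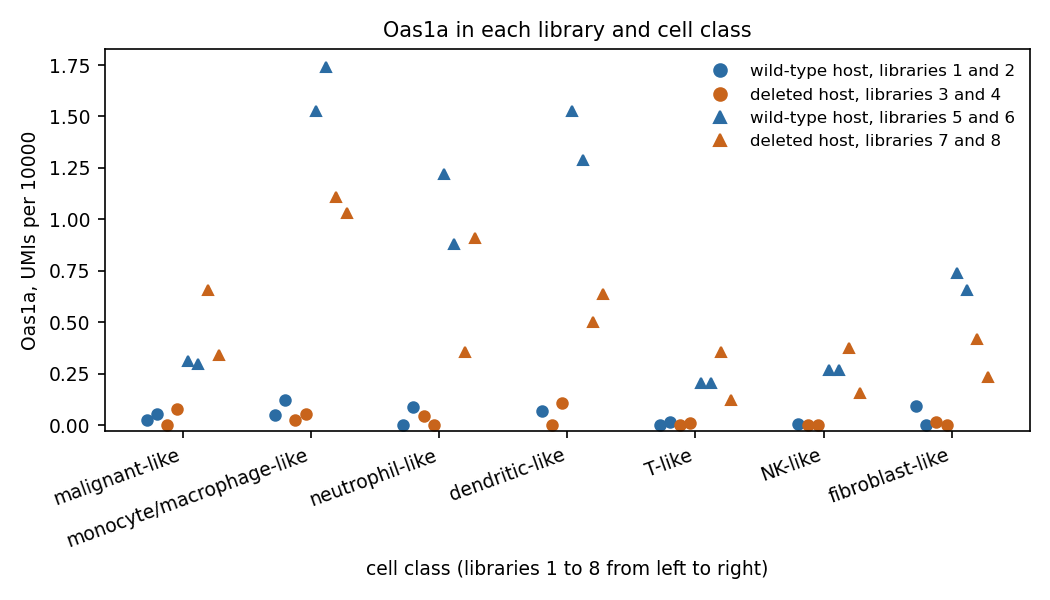
The y axis is the level of Oas1a in UMIs per 10000 for each library in each of the 7 cell classes, with circles for libraries 1 to 4 and triangles for libraries 5 to 8, and color for the host genotype. In each class every triangle lies above every circle, and no circle is above 0.1195.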

How the data were processed

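The authors deposited 1 matrix per library with natural log values, ln(1 + UMIs per 10000 UMIs of the cell), a unit read from the values, which sum to 10000 per cell after exponentiation. Libraries were made with a 10x Genomics 5′ kit from dissociated tumors after density centrifugation, per the labels' protocols. Cell Ranger 2.1, Seurat 3.0 and mm10 are named in the submitters' processing notes, and the sources used here give no further steps. Whole UMIs were recovered for 100% of values (tolerance 0.01).

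Cells were kept with at least 200 genes and at most 10% mitochondrial UMIs. Doublets were not called and may remain, and 1210 kept cells (4.23%) had over 4500 genes. Principal components (30) of 1986 variable genes, without the interferon genes, gave a graph of 15 neighbors, which Leiden clustering (igraph 0.11.9, resolution 1) divided. Clusters were named by markers, and 2 clusters with 433 cells stayed unnamed.

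Libraries were the replicates. Levels were tested with limma 3.58.1 (R 4.3.3) with a mean-dependent prior on log2(level + 0.1), within each class, over genes with a UMI in at least 5% of cells in at least 3 libraries of either genotype. The script was tested on simulated data. Genes are named with each library's value if they passed or were among the 2 with the smallest p without overlap in a class. The 3 highest genes in malignant-like, monocyte/macrophage-like, neutrophil-like and T-like cells are named as well. Listed signaling genes are named throughout, except an item that is not reported here, and other pathway genes if they passed. The members and lists were chosen with earlier results of these data known. Alternatives tried were another pseudocount, no detection filter, summed UMIs, means of the deposited log values, thinned cells, another clustering resolution, members kept in the clustering, a term for the barcode set, each library left out, and T-like or macrophage subsets by Cd8, Cd4 or C1q UMIs. Each barcode set alone, single clusters, the added Cd8a-led cluster and the difference between classes were chosen after seeing the data. Promoters are from RefSeq and positions from GENCODE vM21.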

Additional observations from a re-analysis of the deposited data

Results flagged for a closer look

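Of 54 groups of 4 libraries tested for a library far from the rest by Dixon's test, 3 held one, and chance gives about 1 in 20 groups. Ifi27l2a in T-like cells was 8.26 in wild-type library 1, against 20.8 to 23.1 in the other wild-type libraries. Isg15 in T-like cells was 2.21 in deleted library 7, against 0.929 to 1.09 in the other deleted libraries. Ifi209 in monocyte/macrophage-like cells was 1.31 in wild-type library 1, against 1.98 to 2.04 in the others.

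The genotype difference was tested for a difference between cell classes, and these genes passed. Against malignant-like cells, the log2 difference in dendritic-like cells was lower by -3.22 for Ifit1, -3.03 for Irf7, -2.73 for Isg15, -2.68 for Ifit3, -2.38 for Ifit2, -2.19 for Ifi206 and -2.02 for Trim30a. For monocyte/macrophage-like cells the values were -2.03 for Ifi206, -2 for Ifit1, -1.92 for Ifit2 and -1.52 for Oasl2.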

How the results depend on the processing

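The mean log2 difference over the 33 genes kept its direction and stayed within the spread between libraries in 109 of 125 alternative fits, and 4 reversals were all in fibroblast-like cells. These were 0.0482 with means of the deposited log values, 0.0816 with thinned cells, and, without deleted library 4 or 8, 0.0171 and 0.00208. With means of the deposited log values, the mean was 0.0349 in malignant-like, -0.189 in monocyte/macrophage-like, -0.325 in dendritic-like, -0.0792 in T-like and -0.0682 in NK-like cells. With a pseudocount of 0.5 it was -0.424, -0.727 and -0.197 in monocyte/macrophage-like, dendritic-like and T-like cells. In T-like cells it was -0.145 with summed UMIs, -0.0484 with Cd8 UMIs only and -0.0547 in the Cd8b1-led cluster, and in NK-like cells of libraries 1 to 4 it was -0.128. Leaving out each library in turn gave 0.30 to 0.56 in malignant-like, -0.67 to -0.52 in monocyte/macrophage-like, -0.25 to -0.15 in neutrophil-like, -1.21 to -1.06 in dendritic-like, -0.38 to -0.31 in T-like, -0.53 to -0.27 in NK-like and -0.27 to 0.0171 in fibroblast-like cells.

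Counts of genes that passed were less stable, at 80 of 118 within 1.5 times. In malignant-like cells 1 gene passed, against 3 with a term for the barcode set, 2 with deposited log values, and 0 with a pseudocount of 0.5, at resolution 0.5 or in the Snhg6-led cluster. For monocyte/macrophage-like cells 5 passed with the set term, against 0. In dendritic-like cells 2 passed, against 11 with the set term, and 0 with deposited log values, no detection filter or summed UMIs. In T-like cells 1 passed, against 2 with the set term or at resolution 0.5, and 0 with deposited log values, no filter, Cd8 UMIs only, Cd4 UMIs only or the Cd8b1-led cluster. In NK-like cells 1 passed, against 3 with the set term, 6 with summed UMIs and 0 without the filter. Without the filter more genes were tested, and otherwise the cause was not tested. Leaving out each library gave 0 to 2 in malignant-like, 0 to 4 in dendritic-like, 0 to 1 in T-like and 0 to 2 in NK-like cells, and 0 in the others. The NK-like class was not formed at resolution 0.5.

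Of 401 alternative values for named genes, 348 kept direction and call, 35 lost and 9 gained a call, and 9 changed sign. Isg15 in T-like cells reversed to -0.18 with Cd8 UMIs only, -0.19 in the Cd8b1-led cluster and at resolution 0.5, and to between -0.19 and 0.41 as each library was left out (-0.19 without library 1, -0.17 without library 7). Ddx58 in T-like cells reached 0.21 with Cd4 UMIs only. With deposited log values Bst2 in malignant-like cells was -0.17 and Zbp1 -0.0569, and Zbp1 was -0.0480 in the Snhg6-led cluster. Limma adjusted p-values over the alternatives ranged from 0.00609 to 0.429 for Isg15 and from 0.00609 to 0.306 for Irf7 in dendritic-like cells. For Bst2 they ranged from 0.000925 to 0.553 in T-like and from 8.02e-05 to 0.203 in NK-like cells, and for Ifi206 from 0.00662 to 0.137 in malignant-like cells. No paired analysis was possible because wild-type and deleted libraries share no replicate number. Depth limits low genes most. As few as 1 UMI stood behind a library's value of Ifit3b in neutrophil-like cells and 3 in fibroblast-like cells. The fewest were 6 for Ddx58 in T-like, 7 for Phf11d in monocyte/macrophage-like and 10 for Irf7 in dendritic-like cells.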

Other observations

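Clusters differed in the summed level of the 33 genes, as averages over all their cells. Among T-like cells the Foxp3-led cluster stood at 54.7 and the Trdc-led cluster at 11.4. The Plac8-led monocyte cluster stood at 85.9, and a macrophage cluster led by Retnla at 35.8. Endothelial-like cells (116) stood at 34.1 and mast-like cells (142) at 18.4, both too few to compare by genotype.

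The highest library of each gene varied. In malignant-like cells 19 of 33 genes were highest in deleted library 3 and 7 in deleted library 7. In monocyte/macrophage-like cells 15 were highest in wild-type library 6 and 10 in wild-type library 2.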
